A study of Brassica rapa subsp. pekinensis with 8 samples.

Results

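The genes described here are the xyloglucan endotransglucosylase/hydrolase (XTH) and expansin genes of Chinese cabbage (Brassica rapa subsp. pekinensis). They were taken as every gene whose Arabidopsis description in the deposited table contains "xyloglucan endotransglucosylase" or "expansin", which gave 95 of 38008 genes, 46 XTHs and 49 expansins. Each carries the name of the Arabidopsis locus given beside it in the table, and the members fall on 50 such loci, 25 in each family. A further 8 genes of these families by locus, such as XTH31 and EXPA3, have descriptions without those words and were left out. The table gives no gene lengths or positions, so levels were not compared between genes and no genome coordinates are given.

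RNA was sequenced from inbred lines that differ in bolting time, with line 4004 bolting early and line 50 bolting late, before and after a cold treatment (vernalization) of 35 days. The groups were line 4004 at day 35 (1 library) and at day 0 (1 library), and line 50 at day 35 (3 libraries) and at day 0 (3 libraries). The other replicates of line 4004 were not analysed here, so its libraries, both with the replicate number 3, have no replicate check. Day 35 seedlings had spent the treatment in a cold room under a shorter day and were older than day 0 seedlings, so cold, day length and age cannot be told apart. The sample labels name leaf as the tissue, while the study's methods name shoot, and the methods name several independent plants for each day, collected in independent biological replicates, without saying whether each library pooled plants. In such whole-tissue samples, fewer cells of a type and less RNA per cell cannot be told apart.

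XTHs act on xyloglucan, the hemicellulose that coats and links cellulose microfibrils in the primary wall of cabbage and its relatives. They cut a xyloglucan chain and join the cut end to another chain or, in some members, to water. Expansins loosen the contacts between wall polymers without cutting them, and in Arabidopsis and other plants both families are known for their part in the growth of leaves, stems and roots. The expansin family holds α-expansins (EXPA), β-expansins (EXPB), which include the grass pollen allergens, and the expansin-like EXLA and EXLB groups. TCH4, also named XTH22, is known in Arabidopsis as a gene whose transcript rises within minutes of touch.

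Library totals ran from 18287387 to 27135881 counts. Both replicate 3 libraries of line 50 stood apart from the other libraries of that line, with TMM scaling factors of 0.71 and 0.763 against 1.033 to 1.186 in the other 6 libraries, and with 15% and 12.8% of their counts in their 10 most counted genes against 6.65% to 9.59%. Same-numbered libraries of line 50 also deviated together from their group means, although replicates 1 and 2 did so across numbers as well. Each test below is therefore given from edgeR without a block and, where the call differs, from edgeR with the replicate number as a block. Calls needed a 2-fold change and an adjusted p (Benjamini-Hochberg, over all 31191 genes tested) below 0.05. Values are normalized read counts as deposited, in which 1 or 2 stands for no read or next to none.

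Of the 95 members, 70 had enough counts to be tested, 31 XTHs and 39 expansins. The other 25 members, 15 XTHs and 10 expansins, never had a normalized read count above 7 in any library, and 3 of them had no reads at all. Among them were EXPA7 and EXPA18, which act in root hairs in Arabidopsis, EXPA17, which acts in lateral root formation there, and the copies of XTH12, XTH14, XTH21 and XTH26. The summed normalized read count of 9 root and root hair marker genes was 31, 20 and 29 in line 50 at day 35 against 11, 10 and 21 at day 0. In line 4004 it was 11 at day 35 against 25 at day 0. Much of these sums is the no-read value. The PRP3 and RSL4 genes had 1 or 2 in every library, and only PYK10 copies had more, at most 15. Of the 70 tested members, 61 reached the count minimum in all 4 groups. The other 9 reached it in fewer groups, among them both copies of XTH29 through line 50 at day 35 only, and both copies of EXPB2 through line 4004 only.

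The families took a small share of all counts. All 95 members together held 0.129%, 0.123% and 0.131% of the raw counts in line 50 at day 35, against 0.19%, 0.193% and 0.157% at day 0. In line 4004 the share was 0.107% at day 35 and 0.162% at day 0. Every day 35 library thus lay below every day 0 library of its own line. In line 4004 most of the difference came from the TCH4 locus, with 0.00032% at day 35 and 0.0422% at day 0. The XTHs summed to 17046, 16095 and 16303 normalized reads in line 50 at day 35, against 29883, 27291 and 19237 at day 0. The expansins summed to 10287, 11008 and 24924 at day 35, against 15003, 17378 and 26993 at day 0. The normalized XTH sums did not overlap between days, while the expansin sums did, with replicate 3 highest on both days. As shares of the raw counts the XTHs overlapped too. They held 0.0803%, 0.0731% and 0.052% in line 50 at day 35, against 0.126%, 0.118% and 0.0651% at day 0. The gap in the normalized XTH sums did not hold without the XTH9 copies, nor without XTH4 (Bra013164), since the remaining sums then overlapped between days. In replicate 3 of line 50, XTH4 had 5210 normalized reads at day 35, against 4675 at day 0. In replicate 3 the XTH9 copies had 2186 and 2472 normalized reads at day 35, against 3797 and 3921 at day 0.

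In line 50, vernalized seedlings were compared with day 0 seedlings. Without a block, edgeR called 3 of the 70 members (4.29%), 1 higher and 2 lower at day 35, against 3.92% of all genes (2.23% higher, 1.69% lower). With the replicate block, edgeR called 20 members (28.6%), 2 higher and 18 lower, against 15.6% of all genes, of which 7.94% were higher and 7.69% lower. The lower members were 6 XTHs and 12 expansins, and the higher ones were an XTH29 copy and an EXPA1 copy. The median log2 fold change of the tested members was -0.64 without the block and -0.62 with it, beside 0.01 and -0.01 over all genes tested. All 3 day 35 libraries lay below all 3 day 0 libraries in 17 members (24.3%, against 12.9% of all genes) and above them in 2 (2.86%, against 12.4%). The day 35 library was the lower one in all 3 pairs of equal replicate number in 33 members (47.1%, against 30.2% of all genes) and the higher one in 9 (12.9%, against 26.6%). The unblocked count depended on the libraries kept. It was 0 without replicate 1 of both days, 0 without replicate 2 and 22 without replicate 3. Over all genes those fits called 0, 0 and 6352. Leaving out single libraries gave 0 without replicate 1 of day 35 and without replicate 1 or 2 of day 0. It gave 1 without replicate 2 of day 35, 14 without replicate 3 of day 35, and 4 without replicate 3 of day 0. In the same order, these fits called 116, 48, 53, 85, 3015 and 1088 of all genes.

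**Figure D1:**
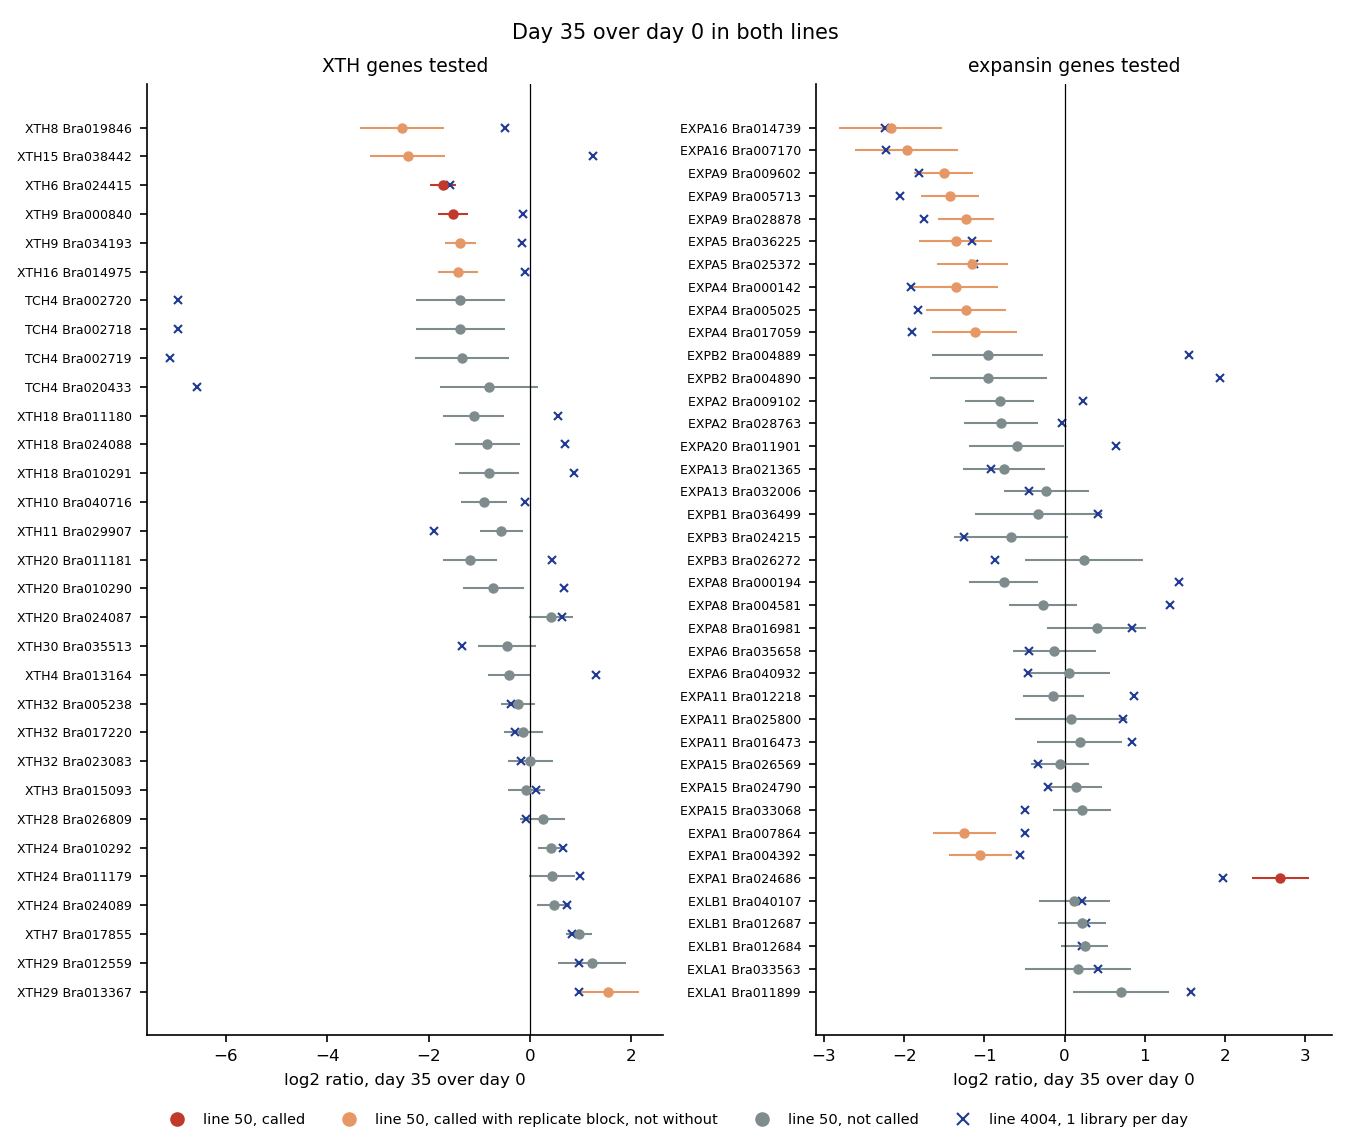
Log2 ratio of day 35 over day 0 for the 31 XTH and 39 expansin genes tested, with copies of 1 Arabidopsis locus next to each other. Circles are line 50 from edgeR without a block, with bars of 1 SE; crosses are line 4004, with 1 library per day and no error. Red marks the 3 genes called, orange the further genes called with the replicate block but not without it, and grey the rest. The 4 TCH4 crosses lie between -7.10 and -6.57, and Bra024686 of EXPA1 lies at 2.69 beside its other copies at -1.25 and -1.05.

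XTH6 and XTH9 were the XTHs called lower at day 35. XTH6 (Bra024415) had 324, 302 and 218 normalized reads in line 50 at day 35, against 1204, 821 and 776 at day 0. The days did not overlap, and the fold change was -1.72 ± 0.26 on the log2 scale (SE; edgeR, adjusted p = 0.022). XTH9 (Bra000840), whose Arabidopsis relative is active in growing shoot tissue, had 1613, 1871 and 2186 normalized reads at day 35, against 6698, 6219 and 3797 at day 0. Again no day 35 library reached a day 0 library, replicate 3 showed the smallest gap, and the log2 fold change was -1.52 ± 0.30 (edgeR, adjusted p = 0.044). The other XTH9 copy, Bra034193, had 1709, 1968 and 2472 normalized reads at day 35, against 6531, 5925 and 3921 at day 0, a log2 fold change of -1.37 ± 0.30. Its adjusted p was 0.056 in edgeR without the block and 0.020 with it, and ran from 0.00033 to 0.75 over the alternatives. The XTH6 and Bra000840 calls were lost without replicate 1 or without replicate 2 of both days, with adjusted p of 0.43 and 0.37 for XTH6 and of 0.67 and 0.62 for Bra000840, and both calls held without replicate 3. Bra000840 also reached only an adjusted p of 0.05 once 1 was taken from every raw count.

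A further 3 XTHs were called lower with the block, by DESeq2 and without replicate 3 of both days, but not by edgeR without the block, and they were singled out after their values were seen. XTH8 (Bra019846) had 14, 33 and 144 normalized reads at day 35, against 448, 349 and 329 at day 0, and replicate 3 was the highest at day 35. Its log2 fold change was -3.04 with the block (edgeR, adjusted p = 0.029; 0.15 without it, and 0.00058 to 0.69 over the alternatives). XTH16 (Bra014975) had 271, 232 and 288 normalized reads at day 35, against 1058, 782 and 341 at day 0, and its replicate 3 differed little between days. Its log2 fold change was -1.34 with the block (edgeR, adjusted p = 0.043; 0.10 without it, and 0.00096 to 0.81 over the alternatives). XTH15 (Bra038442), which like XTH16 is known in Arabidopsis to respond to shade in petioles, had 91, 61 and 66 normalized reads at day 35, against 857, 257 and 90 at day 0. Its days overlapped, through 91 in replicate 1 at day 35 and 90 in replicate 3 at day 0, and its log2 fold change was -2.06 with the block (edgeR, adjusted p = 0.037; 0.13 without it, and 0.012 to 0.76 over the alternatives).

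The remaining much-read XTHs were not called. XTH7 (Bra017855) was the 1 tested XTH member with all day 35 libraries above all day 0 libraries. It had 1944, 2224 and 2075 normalized reads at day 35, against 1028, 890 and 1271 at day 0. Its log2 fold change of 0.97 ± 0.26 had an adjusted p of 0.091 in edgeR, and 0.014 with the block, where the fold fell just short of the 2-fold threshold. XTH4 (Bra013164), one of the most read members, had 2345, 2435 and 5210 normalized reads at day 35, against 4836, 4196 and 4675 at day 0, so replicate 3 did not share the gap of the other pairs (edgeR log2 fold change -0.41 ± 0.41, adjusted p = 0.65). XTH24, first described in Arabidopsis as the meristem gene MERI5, had 3 copies with log2 fold changes of 0.41 to 0.47. The most read of them, Bra024089, had 2295, 2085 and 975 normalized reads at day 35, against 1239, 1550 and 1063 at day 0, and the days overlapped. The 3 copies of XTH32, whose Arabidopsis relative groups with XTHs that split xyloglucan with water, had log2 fold changes of -0.23 to 0.01. XTH29 Bra013367 was called higher with the block (log2 fold change 1.58, edgeR adjusted p = 0.048; 0.22 without it, and 0.012 to 0.97 over the alternatives) on 25, 17 and 3 normalized reads at day 35, against 6, 5 and 4 at day 0, and it passed the filter through the day 35 libraries only. The other copy of XTH29, Bra012559, had 1.22. The rest of the tested XTHs were not called in line 50 either, and their log2 fold changes were -1.11 to -0.81 for the 3 copies of XTH18, -0.90 for XTH10, -0.56 for XTH11, -0.45 for XTH30, -0.07 for XTH3 and 0.25 for XTH28.

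Among the expansins, EXPA1 gave the 1 call without a block, and its copies moved apart. EXPA1 is known in Arabidopsis for its part in the movement of guard cell walls. Bra024686 had 885, 746 and 1405 normalized reads in line 50 at day 35, against 151, 178 and 155 at day 0. All day 35 libraries lay far above all day 0 libraries, and the log2 fold change was 2.69 ± 0.35 (edgeR, adjusted p = 0.014; 0.26 without replicate 1 of both days, 0.22 without replicate 2 and 0.00029 without replicate 3).

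The other EXPA1 copies moved the opposite way. Bra007864 had 753, 849 and 1364 normalized reads at day 35, against 1632, 2610 and 2909 at day 0. Bra004392 had 727, 742 and 1302 at day 35, against 1371, 2145 and 2323 at day 0. Both fell with the block, with log2 fold changes of -1.26 (edgeR, adjusted p = 0.0078; 0.13 without it, and 0.0048 to 0.81 over the alternatives) and -1.08 (edgeR, adjusted p = 0.014; 0.19 without it, and 0.0056 to 0.91 over the alternatives). As a share of the reads of all 3 copies, Bra024686 took 37.4%, 31.9% and 34.5% in line 50 at day 35, against 4.79%, 3.61% and 2.88% at day 0. In line 4004 it took 19.2% at day 35 and 4.0% at day 0. This ratio within a library does not depend on library scaling. In line 50 the mean log2 ratio of Bra024686 to its other copies differed by 3.79 between the days, with p = 0.1 in a two-sided exact permutation test, the smallest p that 3 libraries against 3 allow, and the ratio was chosen after its values were seen.

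**Figure D2:**
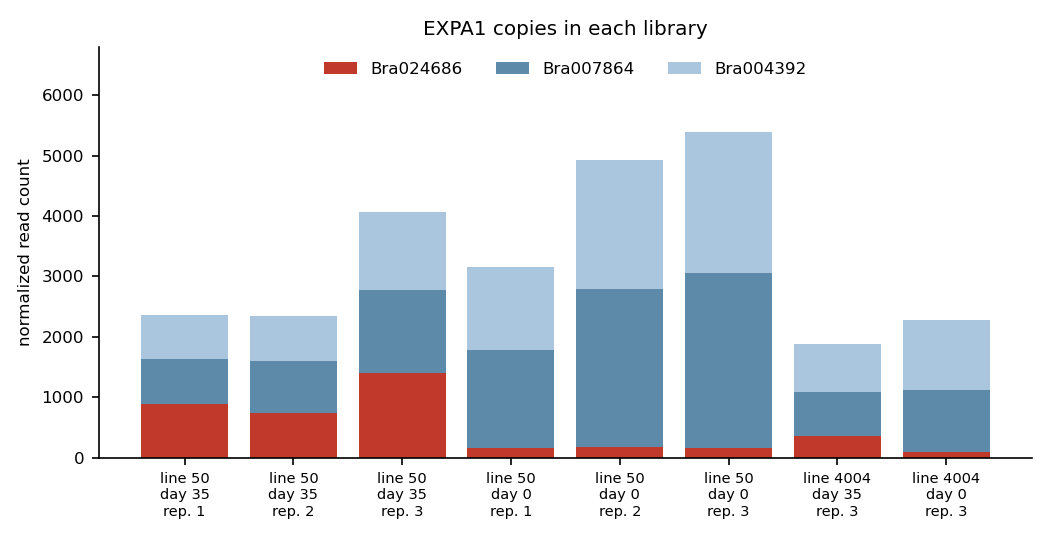
Normalized read counts of the 3 EXPA1 copies stacked in each of the 8 libraries, with no error bars because each bar is 1 library. The red part, Bra024686, holds 31.9% to 37.4% of each line 50 bar at day 35 and 2.88% to 4.79% at day 0.

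EXPA4, EXPA5, EXPA9 and EXPA16, α-expansins with 10 copies in all, were lower at day 35 in every pair of replicates. Summed, the 10 copies had 1525, 1449 and 2671 normalized reads in line 50 at day 35, against 3276, 3433 and 7435 at day 0. The copies' log2 fold changes ran from -2.17 to -1.12 in edgeR without the block, with adjusted p of 0.076 to 0.29, so none was called, while 9 of them had an unadjusted p under 0.05, as had 6382 of the 31191 genes tested. With the block all 10 fell, against 7.69% of all genes, with log2 fold changes of -2.16 to -1.07 and adjusted p of 0.0025 to 0.02 (0.00038 to 0.86 over the alternatives). They were grouped on these values, so the counts describe the group and are no test of it. EXPA16 Bra014739 had 40, 38 and 104 normalized reads at day 35, against 183, 176 and 457 at day 0. Replicate 3 was above the other replicates on both days, while the day 35 value was well under the day 0 value within each number, and the log2 fold change was -2.16 ± 0.17 with the block and -2.17 ± 0.64 without it. EXPA9 Bra009602 had 41, 55 and 78 normalized reads at day 35, against 154, 153 and 194 at day 0. EXPA5 Bra036225 had 237, 238 and 388 at day 35, against 531, 519 and 1173 at day 0. EXPA4 Bra005025 had 317, 259 and 500 at day 35, against 533, 612 and 1370 at day 0. In 9 of the 10 copies all day 35 libraries lay below all day 0 libraries (12.9% of all genes), which the choice of the group had used, and the exception was EXPA4 Bra017059, with 388, 329 and 733 at day 35, against 685, 768 and 1721 at day 0.

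**Figure D3:**
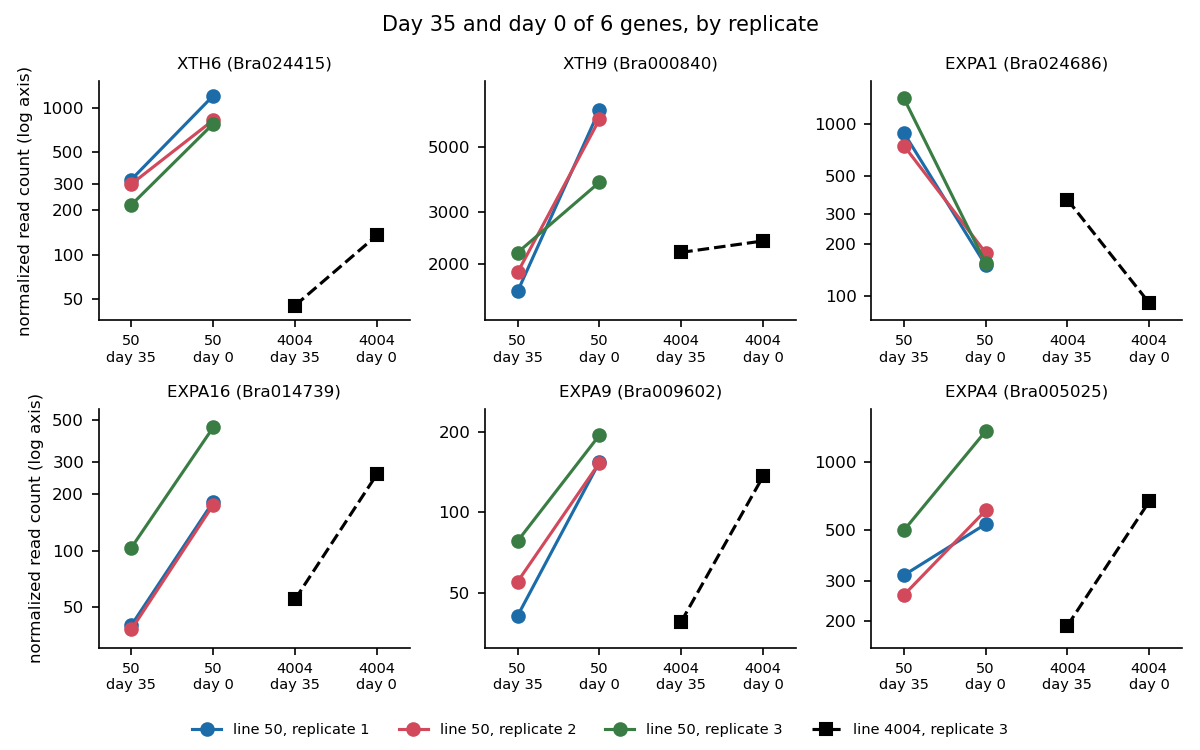
Normalized read counts (log axes) of 6 genes at day 35 and day 0, with a line joining same-numbered libraries of line 50 (circles) and the 2 libraries of line 4004 (squares). EXPA16, EXPA9, EXPA4 and XTH6 are lower at day 35 within every pair, EXPA1 Bra024686 is higher in every pair, and XTH9 in line 4004 has 2190 at day 35 and 2395 at day 0.

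The remaining expansins were not called in line 50. EXPA8 Bra016981, the expansin with the highest mean count, had 1876, 2205 and 6947 normalized reads at day 35, against 2023, 2475 and 4073 at day 0. Its log2 fold change of 0.40 ± 0.62 rested on replicate 3, since it was -0.52 without replicate 3 of day 35. The EXPA6 copies behaved alike, with 726, 845 and 2324 normalized reads at day 35 against 1246, 1393 and 1766 at day 0 for Bra035658, and log2 fold changes of -0.13 and 0.06 (edgeR, adjusted p = 0.93 and 0.97). The other EXPA8 copies had -0.76 and -0.27. EXPA2, which takes part in seed germination in Arabidopsis, had -0.81 and -0.79 for its copies, EXPA13 had -0.76 and -0.23, and EXPA20 had -0.60. The EXPA15, EXPA11, EXLA1 and EXLB1 copies had log2 fold changes of -0.14 to 0.70. The β-expansins EXPB1, EXPB2 and EXPB3 had log2 fold changes of -0.96 to 0.24.

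Copies of 1 locus mostly moved together. Of the 22 loci with more than 1 tested copy (57 genes), 14 had copies with fold changes of 1 sign in line 50 and 8 had copies of both signs. The range between copies had a median of 0.28 on the log2 scale and was under 0.5 at 15 loci. EXPA1 had the widest range, 3.94, followed by XTH20 at 1.60 and EXPA8 at 1.16. XTH20 Bra011181 had 82, 72 and 54 normalized reads at day 35, against 285, 142 and 56 at day 0, while its copy Bra024087 had 165, 134 and 90 at day 35, against 154, 96 and 45 at day 0. No XTH20 copy was called in edgeR with or without the block. Near-identical copies can share reads, and Bra002718 and Bra002720 of TCH4 had equal counts in all 8 libraries, so those 2 cannot be told apart.

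In line 4004, day 35 was set beside day 0 with 1 library each, and no test was run, since its spread would have come from line 50 alone. Intervals cover counting error only. Among the 19 members with a mean of at least 500 normalized reads, 1 was at least 2-fold higher and 7 were at least 2-fold lower, together 8 of 19, against 9.96% of all genes with such a mean (3.94% higher, 6.02% lower). The median log2 ratio of these members was -0.50, beside 0.08 over all genes with such a mean. Of the 7 lower members, 4 were TCH4 copies the identical pair included, and the others were EXPA4 Bra017059 and EXPA5 Bra036225 and Bra025372. TCH4 Bra002719 had 22 normalized reads (95% exact Poisson interval 14.1 to 32.8) at day 35 and 3046 (2939.3 to 3155.6) at day 0, a 137-fold lower level. Bra002718 and Bra002720 had 20 at day 35 and 2393 at day 0, and Bra020433 had 16 at day 35 and 1567 at day 0. The remaining gene of the locus, Bra020432, had only 1 or 2 in every library and was not tested.

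The α-expansin group of line 50 was also lower in line 4004 at day 35. All 10 copies of EXPA4, EXPA5, EXPA9 and EXPA16 were 2.19- to 4.74-fold lower at day 35, and they summed to 1765 normalized reads at day 35 and 5350 at day 0. Of all genes averaging 50 reads or more in these libraries, 7.51% were lower and 4.83% higher by 2-fold or more. EXPA4 Bra017059 had 358 (322.4 to 396.5) at day 35 and 1325 (1254.9 to 1397.9) at day 0. EXPA5 Bra036225 had 449 (409.0 to 491.9) at day 35 and 999 (938.3 to 1062.6) at day 0. XTH6 had 45 (33.2 to 59.7) at day 35 and 135 (113.4 to 159.5) at day 0, and EXPA1 Bra024686 had 362 (326.2 to 400.7) at day 35 and 91 (73.5 to 111.5) at day 0. For these genes the ratio in line 4004 had the sign seen in line 50. XTH15, lower in line 50 with the block, had the opposite sign in line 4004, with 122 at day 35 and 51 at day 0, and XTH16 had 195 at day 35 and 206 at day 0. XTH9 had little difference between days in line 4004, with 2190 at day 35 and 2395 at day 0 for Bra000840.

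Among the members with a mean of at least 500, those furthest up in line 4004 were XTH4, XTH24, EXPA8 and XTH7. XTH4 had 2898 normalized reads (2794.8 to 3004.0) at day 35 and 1157 (1091.6 to 1225.3) at day 0, 2.49-fold higher. XTH24 Bra011179 had 840 at day 35 and 420 at day 0 (1.99-fold), and Bra024089 had 998 at day 35 and 597 at day 0 (1.66-fold). EXPA8 Bra016981 had 3987 at day 35 and 2211 at day 0 (1.79-fold), and XTH7 had 1318 at day 35 and 733 at day 0 (1.78-fold). Members with fewer reads had higher ratios, up to 3.95-fold for EXPA1 Bra024686 and 3.84-fold for EXPB2 Bra004890.

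The lines were compared at day 0, before the cold. The single library of line 4004 lay below all 3 libraries of line 50 in 36 of the 70 tested members (51.4%, against 22.8% of all genes) and above them in 11 (15.7%, against 33.0%). Since line 4004 had 1 library a day, the spread in each test between the lines came from line 50 alone, and line 4004 was assumed to vary alike. edgeR without a block called 1 member (1.43%), XTH6, against 1.49% of all genes (1.2% higher, 0.292% lower), and with the block it called 15 (21.4%), 5 higher and 10 lower in line 4004, against 7.58% of all genes (4.66% higher, 2.91% lower). In that fit line 4004 is in effect set against replicate 3 of line 50, and whether the number pairs the lines could not be checked. The unblocked count was 0 without replicate 1 or 2 of line 50 on either day or both. It was 6 without replicate 3 of day 35, 1 without replicate 3 of day 0, and 31 without replicate 3 of both days. In the same order, these fits called 2 to 156, 997, 652 and 8712 of all genes. XTH6 had 135 normalized reads in line 4004 at day 0, against 1204, 821 and 776 in line 50, a log2 fold change of -2.83 ± 0.43 (edgeR, adjusted p = 0.032; 0.34 without replicate 1 of both days and 0.31 without replicate 2).

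Members of EXPA8, EXPA11 and XTH4 were called lower in line 4004 at day 0 with the block, by DESeq2 and without replicate 3 of both days, but not by edgeR without the block, and were picked once these values were known. EXPA8 Bra000194 had 51 normalized reads in line 4004, against 537, 584 and 535 in line 50, with a blocked log2 fold change of -4.05 (edgeR, adjusted p = 0.027; 0.094 without it, and 8.3e-05 to 0.43 over the alternatives). EXPA8 Bra004581 had 188 in line 4004, against 963, 1118 and 1179 in line 50, while the most read copy, Bra016981, had 2211 in line 4004, within the 2023, 2475 and 4073 of line 50. The balance between the EXPA8 copies thus differed between these libraries, and that difference was not tested. EXPA11 Bra016473 had 37 in line 4004, against 226, 226 and 416 in line 50, with a blocked log2 fold change of -3.84 (edgeR, adjusted p = 0.011; 0.21 without it, and 0.00038 to 0.56 over the alternatives). The other EXPA11 copies had 129, against 494, 409 and 547, and 26, against 58, 71 and 149. XTH4 had 1157 in line 4004, against 4836, 4196 and 4675 in line 50, with a blocked log2 fold change of -2.58 (edgeR, adjusted p = 0.038; 0.24 without it, and 0.00039 to 0.81 over the alternatives). The remaining members lower with the block were EXPA1 Bra007864, EXLA1 Bra011899 and EXPA20 Bra011901, with blocked log2 fold changes of -1.77, -2.23 and -1.79.

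The same libraries differed in leaf markers and in genes of dividing cells. CA1, a carbonic anhydrase gene of leaf chloroplasts, had 5309 normalized reads in line 4004 at day 0, against 43039, 32929 and 52535 in line 50 for Bra039113. All 4 leaf marker genes tested (copies of RBCS1A and CA1) were called lower with the block, against 2.91% of all genes. None of the 4 was called without it (edgeR, adjusted p = 0.067 to 0.6), where their median log2 fold change was -2.20. The 8 cell division genes had a median log2 fold change of -1.44 in line 4004 at day 0. The cyclin gene CYCB1;1 (Bra011769) had 51 normalized reads there, against 326, 320 and 231 in line 50, and was called lower (log2 fold change -2.55, edgeR adjusted p = 0.036; 0.020 with the block), and 1 further gene of the list, a CYCB1;2 copy, was called with the block. In line 4004 all 8 summed to 1077 normalized reads, against 3126, 2844 and 2571 in line 50. The part of both lists in the XTH and expansin values was not tested.

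**Figure D4:**
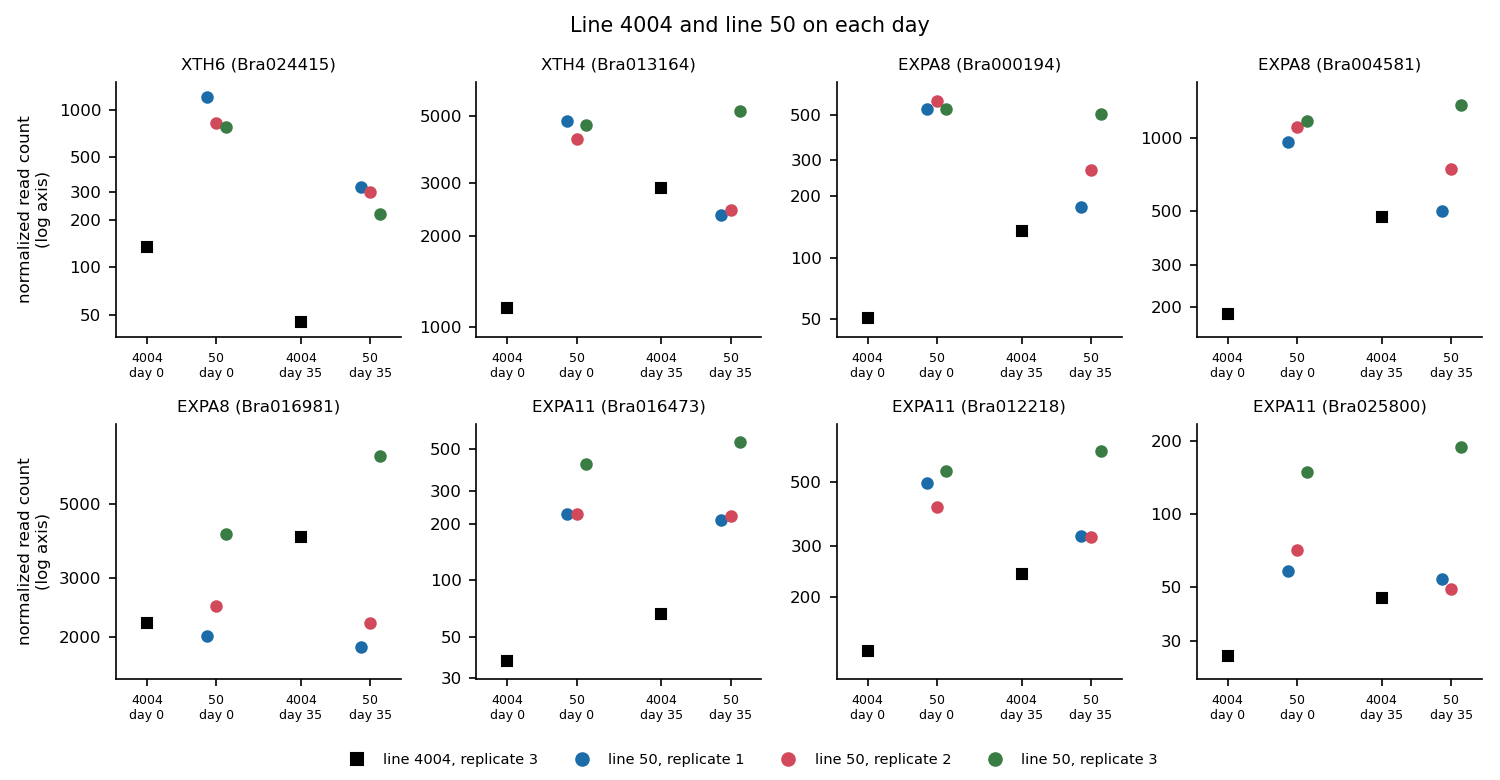
Normalized read counts (log axes) of XTH6, XTH4 and the copies of EXPA8 and EXPA11 in line 4004 (black square, 1 library) and line 50 (coloured circles, 3 libraries) at day 0 and at day 35. At day 0 the square lies below every circle in each panel except EXPA8 Bra016981, where it has 2211 beside 2023 to 4073 in line 50.

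TCH4 had its highest counts in line 4004 at day 0. Bra002719 had 3046 normalized reads in line 4004, against 367, 591 and 110 in line 50. Bra002718 and Bra002720 had 2393, against 272, 429 and 87, and Bra020433 had 1567, against 191, 365 and 43. Each copy in line 4004 was above every line 50 library, and the copies were called with the block (edgeR, adjusted p = 0.033 to 0.044) but not without it (adjusted p = 0.26 to 0.36, and 0.02 to 0.78 over the alternatives). At day 35 Bra002719 had 22 in line 4004, against 332, 54 and 28 in line 50. Within line 50 the copies varied widely between replicates on each day, so the log2 fold change of Bra002719 for day 35 against day 0 in that line was -1.34 ± 0.92 (edgeR, adjusted p = 0.49; 0.11 with the block). CML24, the touch gene TCH2 of Arabidopsis and the 1 other touch-inducible gene of the list that matched, had 4147 normalized reads in line 4004 at day 0, against 147, 267 and 325 in line 50 (edgeR log2 fold change 4.0, adjusted p = 0.055; 0.021 with the block). It had 502 in line 4004 at day 35, against 163, 163 and 485 in line 50. The sources used here do not say how plants were handled at harvest. XTH11 Bra029907 was the remaining member higher with the block at day 0 (edgeR, adjusted p = 0.043; 0.067 without it, and 0.0039 to 0.64 over the alternatives), on 28 normalized reads in line 4004, against 4, 6 and 4 in line 50, and it passed the filter through line 4004 at day 0 only.

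**Figure D5:**
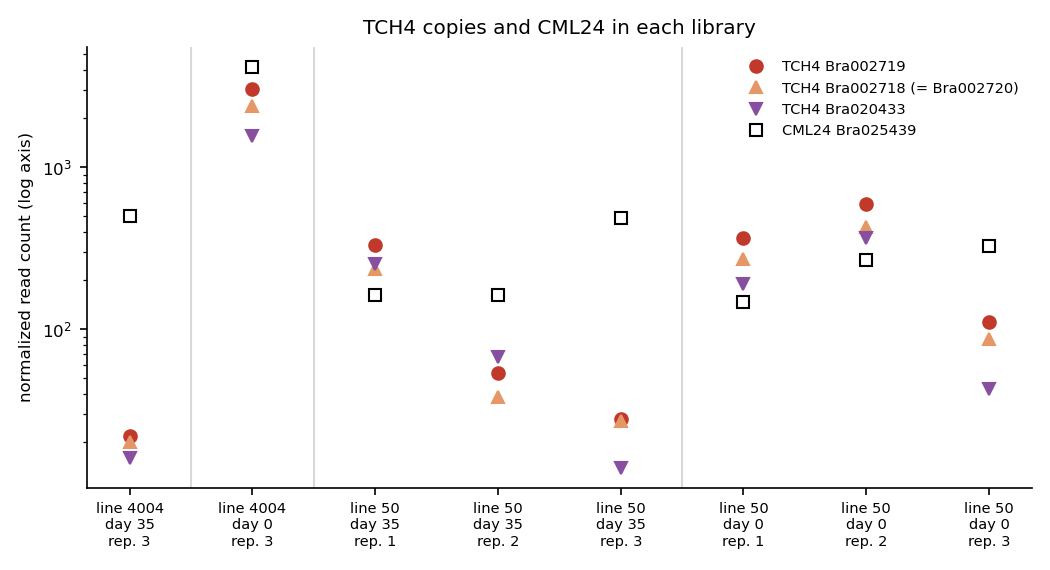
Normalized read counts (log axis) of 3 TCH4 copies and of CML24 in each library, line 4004 first. In line 4004 at day 0 the copies have 1567 to 3046 and CML24 has 4147; the TCH4 copies have 16 to 22 in line 4004 at day 35 and 14 to 591 in line 50.

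The lines were also compared at day 35. Line 4004 lay below all 3 libraries of line 50 in 26 of the 70 members (37.1%, against 16% of all genes) and above them in 13 (18.6%, against 26.2%). edgeR without a block called 1 member (1.43%), EXPB2 Bra004890, against 0.446% of all genes (0.353% higher, 0.093% lower). Without replicate 3 of both days it called 10 members and 5084 genes in all. EXPB2 Bra004890 had 57 normalized reads in line 4004, against 1, 2 and 2 in line 50 (edgeR, adjusted p = 0.044), and at day 0 it had 15 in line 4004, against 2, 2 and 6 in line 50. The gene passed the filter through the line 4004 libraries only, and its adjusted p was 0.057 with the block and 0.13 with 1 taken from every raw count, and ran from 0.0022 to 0.54 over all the alternatives. The call was also lost without any single line 50 library other than replicate 3 of day 0, with adjusted p of 0.068 to 0.22. The other EXPB2 copy, Bra004889, had 18 in line 4004, against 2, 4 and 2 in line 50 (edgeR, adjusted p = 0.42).

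With the block, edgeR called 2 members at day 35 (2.86%, against 0.952% of all genes, with 0.458% lower and 0.494% higher), both lower in line 4004. XTH6 had 45 normalized reads in line 4004, against 324, 302 and 218 in line 50 (blocked log2 fold change -2.50, edgeR adjusted p = 0.035; 0.073 without it, and 2.4e-06 to 0.82 over the alternatives). EXPA11 Bra016473 had 66 in line 4004, against 209, 219 and 548 in line 50 (blocked log2 fold change -3.09, edgeR adjusted p = 0.028; 0.64 without it, and 0.0022 to 1.0 over the alternatives). XTH6 was thus lower in line 4004 than in every line 50 library on each day.

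The difference between the lines in their day 35 against day 0 change was tested as an interaction. edgeR called no member and no gene at all (0.0%), with or without the block, while DESeq2 called 0 members and 69 genes. At an unadjusted p under 0.05 there were 7 members and 956 genes without the block, and 14 members and 2969 genes with it. The 7 were the 4 TCH4 genes, XTH15, EXPA8 Bra000194 and EXPB2 Bra004890, with log2 differences of -5.75 to 3.65 (line 4004 minus line 50) and an adjusted p of 1.0 each in edgeR. Without replicate 3 of line 50, 10 members passed, as did 2012 genes in all.

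Genes that build and trim xyloglucan formed a list of 18 Arabidopsis loci, all matched, by 31 genes that were all tested. In line 50, 0 were higher and 1 was lower at day 35 by edgeR, against 2.23% and 1.69% of all genes. Their median log2 fold change was -0.22. The lower gene was AXY8 (Bra011514), a fucosidase that trims xyloglucan in Arabidopsis, with 402, 360 and 404 normalized reads at day 35, against 1272, 1070 and 817 at day 0. Its days did not overlap (log2 fold change -1.41 ± 0.23, edgeR adjusted p = 0.028), and in line 4004 it had 250 at day 35 and 879 at day 0. The copies of XXT2, a xylosyltransferase, and of XYL1, an α-xylosidase, had log2 fold changes of 0.01 to 0.25, without a call. Between the lines at day 0, 3 of the 31 genes were higher in line 4004 with the block, against 4.66% of all genes. They were a copy of XXT1 and 2 of the glucan synthase CSLC4, and none was called without the block.

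Marker genes of other tissues moved between the days as well. The meristem gene KNAT1 had 81, 67 and 115 normalized reads in line 50 at day 35, against 1, 1 and 2 at day 0, and 26 in line 4004 at day 35 against 1 at day 0. STM had 59, 52 and 66 in line 50 at day 35, against 1, 2 and 2 at day 0. Thus 2 of 3 tested meristem genes rose (edgeR, adjusted p = 0.0054 and 0.0051). The other, CLV1, had 478, 564 and 1416 at day 35, against 712, 875 and 888 at day 0. Its log2 fold change was 0.04 (edgeR, adjusted p = 0.98). CLV3 and the WUS copies were at 1 to 3 in all libraries and were not tested. KNAT1 and STM passed the filter through the day 35 groups only, and a copy of PYK10, a root gene, through line 50 at day 35 only. Of the leaf markers 0 of 4 were called without the block and 2 fell with it, and their summed normalized reads were 73699, 71763 and 126701 at day 35, against 138303, 113974 and 186273 at day 0. None of 8 cell division genes (median log2 fold change -0.52) and none of 7 genes of xylem secondary walls (median -0.76) were called in edgeR without the block. At an unadjusted p under 0.05 these lists had 1 and 2 genes, and the leaf list 2. With the block, 0 and 1 were called. Further, 1 of 2 tested root genes, that PYK10 copy, rose on 11, 6 and 6 normalized reads at day 35, against 1, 1 and 2 at day 0. The part of these shifts in the XTH and expansin values was not tested.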

How the data were processed

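RNA-seq of 8 libraries was analysed from 1 deposited table. The authors trimmed reads with SolexaQA, mapped them to the Brassica rapa gene set version 1.5 with Bowtie2 and deposited raw counts per gene; the counting program and how reads fitting several copies were assigned are not given in the sources used here. The lowest deposited raw count was 1 in every library. The authors' normalized counts, treated here as a score, are raw counts divided by a DESeq size factor per library, set together with further libraries, and rounded.

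Tests on raw counts used edgeR 4.0.16, run in R 4.3.3 (TMM, filterByExpr with a count minimum of 10, quasi-likelihood F test, 4 groups). The fit without the block had 4 residual degrees of freedom and a common biological coefficient of variation of 0.398. The fit with the block had fewer residual degrees of freedom. Calls needed a Benjamini-Hochberg adjusted p under 0.05 and a 2-fold change. P-values measure the spread between libraries of a group, which line 50 alone supplied. The replicate numbers of line 50 were taken as pairs because deviations from the group means correlated at 0.446, 0.615 and 0.695 for equal numbers, although those of replicates 1 and 2 also correlated across numbers (0.473 and 0.563), and the block was run as an alternative. Fold ratios of line 4004 used TMM-scaled counts. Alternatives were RLE factors, no filter, DESeq2 1.42.0, counts less 1, line 50 alone, and each library or replicate left out. The scripts were tested on simulated data.

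Named were every TCH4 gene, the members called without the block, the 5 most read XTHs and 5 most read expansins, the 6 members furthest up and the 6 furthest down in line 4004 with a mean of at least 500, called list genes, and copies of these loci; other genes were named after their values were seen. Members and lists were chosen with earlier results of these data known. No sequences are shown, since the reference tables used here do not pair these gene identifiers with sequences.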

Additional observations from a re-analysis of the deposited data

How the results depend on the processing

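RLE size factors changed no call of a named gene. For day 35 against day 0 in line 50, 3 members and 1224 genes were called in edgeR; DESeq2 called 12 and 2954, and the replicate block 20 and 4876. For line 4004 against line 50 at day 0, 1 member and 466 genes were called; no filter gave 2 members, DESeq2 gave 6 and 1564, the block 15 and 2363, and counts less 1 gave 277 genes. At day 35, 1 member and 139 genes were called; DESeq2 gave 2 and 433, the block 2 and 297, and counts less 1 gave 0 and 47. DESeq2 also moved the split of all genes, to 906 higher and 658 lower at day 0 against 375 and 91 in edgeR, and to 189 and 244 at day 35 against 110 and 29. For the interaction DESeq2 called 69 genes, against 0. In line 4004 a mean of at least 50 in place of 500 put 22 of 54 members past 2-fold, beside 12.3% of all genes (4.83% higher, 7.51% lower), against 8 of 19. Leaving out libraries, the counts ran over 0 to 22 members and 0 to 6352 genes in line 50, 0 to 31 and 2 to 8712 between lines at day 0, 0 to 10 and 0 to 5084 at day 35, and 0 to 10 and 0 to 2012 for the interaction. The high ends came without replicate 3 of both days; the cause was not tested.

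The signs that turned belonged to genes not called in line 50. TCH4 Bra020433 ran from -2.24 to 0.19, and was 0.19 without replicate 2, when libraries were left out, against -0.81. EXPA8 Bra016981 ran from -0.52 to 0.82, and was -0.52 without replicate 3 of day 35 and -0.12 without replicate 3, against 0.40. EXPA6 Bra035658 ran from -0.93 to 0.18, and was 0.05 to 0.18 in 5 of those fits, against -0.13. EXPA6 Bra040932 was -0.15 with the replicate block and ran from -0.70 to 0.36 when libraries were left out, below 0 in 3 fits, against 0.06. The 25 members with at most 7 normalized reads were too shallow to test.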

Other observations

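XTH genes that the word rule left out were read as well. Both XTH31 copies, whose Arabidopsis relative acts as a xyloglucan hydrolase, were higher at day 35 in line 50 with the replicate block but not without it. Bra037614 had 190, 156 and 424 normalized reads at day 35, against 41, 64 and 99 at day 0 (blocked log2 fold change 1.86, edgeR adjusted p = 0.0069; 0.11 without it). Bra019416 had 409, 329 and 688 at day 35, against 151, 194 and 269 at day 0 (blocked log2 fold change 1.19, edgeR adjusted p = 0.011; 0.16 without it). In both copies every day 35 library of line 50 lay above every day 0 library, while line 4004 had 189 at day 35 and 182 at day 0 for Bra037614, and 312 at day 35 and 389 at day 0 for Bra019416. The interaction was not called for either copy (edgeR adjusted p = 1.0; 0.31 and 0.30 with the block). EXPA3 Bra005176 had 322, 370 and 1268 normalized reads in line 50 at day 35, against 361, 346 and 798 at day 0, so replicate 3 was the highest on both days. The XTH23 genes Bra008806 and Bra013922 had equal values in every library, with 72 normalized reads in line 4004 at day 0, against 2, 7 and 7 in line 50 (blocked log2 fold change 3.99, edgeR adjusted p = 0.048; 0.084 without it).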
